A study of Mus musculus with 8 samples.

Results

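Activin signalling was examined through 7 genes. Inhba and Inhbb encode the beta A and beta B subunits of the activin ligands, Fst encodes the antagonist follistatin, Acvr2a and Acvr2b are type II receptors, and Acvr1b and Acvr1 are type I receptors. Members were taken by their symbol in the platform annotation. The set was selected on the Inhba signals of these same arrays, which gave a wide stress difference in an earlier analysis, so the contrast of IMO with No stress is described for the members and not tested. Of the 7 genes, 6 were among the 19057 genes named on the array, with 10 probes. Inhbb has no probe named in that annotation and was not analysed here. A probe counted as detected on an array at a detection p under 0.05, and 5 of the 10 probes, 1 each for Inhba, Acvr1, Acvr1b, Acvr2a and Acvr2b, were detected on all 8 arrays. The other 5, the single Fst probe among them, were detected on 0 to 3 arrays.

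Each array measured RNA of medial prefrontal cortex, taken on both sides with a 1 mm punch from male mice aged 10 weeks. The IMO group (4 arrays, replicates 1 to 4) had been immobilized for 2 h, and transcripts were measured at rest on day 6 after that stress. The No stress group (4 arrays, replicates 5 to 8) was not immobilized. Strain, genotype and whether an array holds the tissue of a single animal are not given in the sources used here, so the spread reported is that between these samples, which may be technical. All values are on Illumina bead arrays, as log2 signal unless stated otherwise.

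Activins are dimers of beta subunits and belong to the transforming growth factor beta superfamily. The dimer binds a type II receptor, which recruits and phosphorylates a type I receptor such as Acvr1b, and this kinase in turn phosphorylates Smad2 and Smad3, which enter the nucleus with Smad4. Follistatin binds the ligand outside the cell and keeps it from its receptors. In rodent forebrain Inhba is known as a transcript induced by synaptic activity and nuclear calcium, and activin A is known for effects on dendritic spines, NMDA receptor responses and neuronal survival.

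Between 20012 and 21038 of 45281 probes were detected per array, and 20531 probes of 11018 named genes entered the fit. By limma, 0 of these probes had a Benjamini-Hochberg adjusted p under 0.05 between IMO and No stress (smallest adjusted p 0.152), while 2183 (10.6%) had an unadjusted p under 0.05. Detected markers of cortical excitatory neurons numbered 6, Slc17a7 among them. IMO replicate 1 and No stress replicate 6 stood apart from the other arrays. Zic1, abundant in septal and other forebrain regions beneath the cortex, was at 11.86 and 11.63 on these arrays and at 8.81 to 9.70 on the others. A second deposited table, labelled non-normalized, carries the same sample names over different signals. Unless it is named, values come from the value table, whose columns match the detection p-values in 8 of 8 arrays.

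Inhba had higher signal in every IMO array than in any No stress array. The Inhba probe ILMN_2868220 gave linear signals of 663, 350, 265 and 381 in IMO replicates 1 to 4, against 170, 201, 211 and 164 in No stress replicates 5 to 8. On the log2 scale these were 9.37, 8.45, 8.05 and 8.57 in IMO, against 7.41, 7.65, 7.72 and 7.36 in No stress. IMO replicate 1 was the highest array and IMO replicate 3 the lowest of its group, and the IMO group was spread more widely than the No stress group. The means were 8.61 ± 0.55 in IMO and 7.54 ± 0.18 in No stress (SD, n = 4 each). IMO minus No stress came to 1.08 (standard error 0.23), a 2.11-fold higher signal in IMO. The lowest IMO array lay 0.33 above the highest No stress array. Among the 20531 probes this difference ranked 5 by size, where the central 95% of probes lay between -0.312 and 0.31 and the median was 9.16e-04. Inhba was the 1 member of 5 tested whose groups did not overlap, with IMO above No stress, and 3.36% of all probes tested had their groups apart in that direction. The rule used this contrast, so nothing is read from that count. In bulk tissue, more cells that make a transcript and more transcript per cell cannot be told apart.

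**Figure D1:**
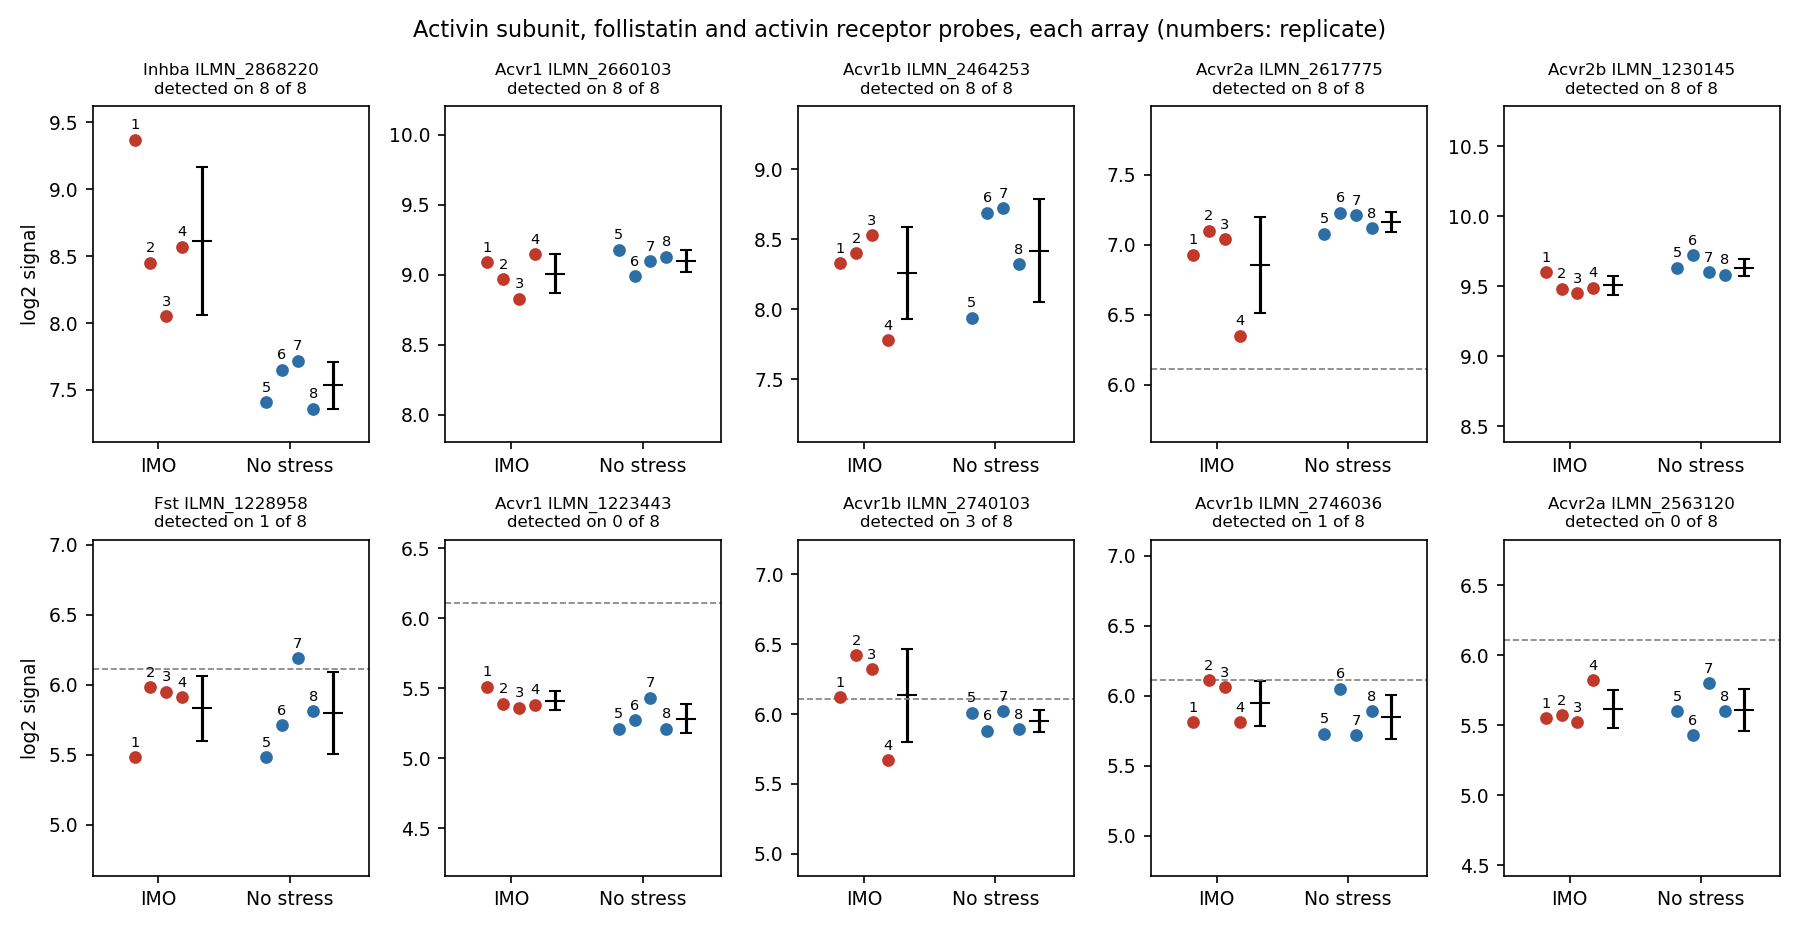
Log2 signal (vertical axes, each with its own range) of the 10 probes in IMO and No stress arrays. Points are arrays numbered by replicate, the bar is the mean with 1 SD (n = 4), and the dashed line marks the signal of about 6.11 at which detection p reached 0.05. The IMO points lie above the No stress points in the Inhba panel, while the points of the 4 detected receptor probes overlap between groups.

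The sequence upstream of Inhba is shown because, among the detected members, Inhba had the largest difference in the value table, the contrast on which the set was chosen. It is the 250 bases before the RefSeq transcript start (GRCm38.p6, chr13:16011601-16011850, plus strand), written 5′ to 3′ with the single match among the motifs searched in capitals.
Inhba: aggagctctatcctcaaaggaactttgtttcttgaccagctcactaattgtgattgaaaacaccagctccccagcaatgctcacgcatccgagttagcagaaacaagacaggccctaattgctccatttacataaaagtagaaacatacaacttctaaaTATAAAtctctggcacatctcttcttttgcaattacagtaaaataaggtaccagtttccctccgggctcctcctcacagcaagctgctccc
Letters were searched on both strands. The TATA-like TATAAA was found once, at -91 from the start, and 12.4% of 32851 promoter windows of this length hold it. The full cAMP response element TGACGTCA is in 1.55% of the windows, and its first part, spelled TGACG and so found wherever the full element is, in 17.8%. The AP-1 letters TGAGTCA are in 4.46%, the E-box letters CACGTG in 6.02% and the Smad palindrome GTCTAGAC in 0.167% of the windows. None of these other letters is in the Inhba window, which says nothing of the factors that bind them.

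The members differ in base composition upstream of their starts, a feature that did not enter their choice. The Inhba window has a GC content of 43.2% with 3 CpG dinucleotides, and 19% of all windows have a lower GC content. The receptor windows have GC contents of 72.8% (Acvr2b), 78.8% (Acvr1b), 82% (Acvr2a) and 85.6% (Acvr1), with 24 to 49 CpG dinucleotides. That of Inhbb stands at 68% with 21. The median over all windows is 52.4%, with 6 CpG dinucleotides.

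The follistatin probe was near background throughout. Fst ILMN_1228958 gave 5.48, 5.98, 5.95 and 5.91 in IMO, against 5.48, 5.71, 6.19 and 5.81 in No stress. It was detected on 0 IMO arrays and 1 No stress array, and the group means were 5.83 ± 0.23 in IMO and 5.80 ± 0.30 in No stress (SD, n = 4 each). At this signal a difference in Fst was not detectable.

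Of the type II receptors, which bind the ligand first, Acvr2a had lower mean signal in IMO. Acvr2a ILMN_2617775 gave 6.93, 7.10, 7.04 and 6.35 in IMO, against 7.08, 7.23, 7.21 and 7.12 in No stress. IMO replicate 4 was far below the rest, and IMO replicate 2 lay above No stress replicate 5, so the groups overlapped. The 6.35 of IMO replicate 4 lay near background, as detection p reached 0.05 at a signal of about 6.11. IMO minus No stress came to -0.31 (standard error 0.15), and to -0.14 without IMO replicate 4. The other Acvr2a probe, ILMN_2563120, was detected on 0 arrays.

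Acvr2b, the other type II receptor, varied little. Acvr2b ILMN_1230145 gave 9.60, 9.48, 9.45 and 9.49 in IMO, against 9.63, 9.72, 9.60 and 9.58 in No stress. The groups overlapped through IMO replicate 1, and the other 3 IMO arrays lay below every No stress array. IMO minus No stress came to -0.13 (standard error 0.0792), or -8.38% in linear signal. Leaving out 1 array at a time gave -0.16 to -0.10.

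Acvr1b, the type I receptor that carries the activin signal to Smad2 and Smad3, had no common direction between groups. Acvr1b ILMN_2464253 gave 8.33, 8.40, 8.53 and 7.78 in IMO, against 7.94, 8.69, 8.72 and 8.32 in No stress. Each group held an array below its others, IMO replicate 4 and No stress replicate 5, and IMO minus No stress came to -0.15 (standard error 0.198). Without IMO replicate 4 it was 0.01, and without No stress replicate 5 it was -0.31. The dimmer probes ILMN_2740103 (detected on 3 IMO and 0 No stress arrays) and ILMN_2746036 (1 and 0) had differences of 0.18 and 0.10, opposite in sign to the bright probe.

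Acvr1, a type I receptor that mainly serves bone morphogenetic proteins and also binds activins, had the smallest difference of the 4 detected receptors. Acvr1 ILMN_2660103 gave 9.09, 8.97, 8.83 and 9.15 in IMO, against 9.18, 8.99, 9.10 and 9.13 in No stress. The ranges overlapped, and IMO minus No stress came to -0.09 (standard error 0.0938). It was -0.03 without IMO replicate 3 and -0.13 without IMO replicate 4. Its other probe, ILMN_1223443, was detected on 0 arrays.

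The differences of the 4 detected receptors ranged from -0.31 to -0.09, all below 0, and each was smaller in size than that of Inhba. Of all 20531 probes tested, 10219 were below 0 as well. Acvr1b stood at 0.01 without IMO replicate 4. In the second table Acvr1b and Acvr2a stood at 0.02 and 0.14, beside -0.15 for Acvr1 and -0.12 for Acvr2b. The median over the 5 detected members was -0.13, beside 9.16e-04 over all probes tested. IMO replicate 4, whose Inhba signal was the second highest of all arrays, had the lowest Acvr1b and Acvr2a signals of all arrays, at 7.78 and 6.35. IMO replicate 1, whose Inhba signal was the highest, was at 8.33 for Acvr1b and 6.93 for Acvr2a.

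Whether punch content tracked Inhba was examined with scores, each the mean deviation of a list's detected genes from their own means over the 8 arrays. The myelin score used 12 of 15 listed genes and was 1.02, -0.652, -0.32 and -0.499 in IMO replicates 1 to 4, against -0.219, 1.10, 0.0226 and -0.455 in No stress replicates 5 to 8. The upper-layer score used 9 of 14 listed genes, without Inhba, and was -0.289, 0.0837, 0.153 and -0.0135 in IMO, against -0.00795, -0.454, 0.164 and 0.364 in No stress. IMO replicate 1 and No stress replicate 6 had the highest myelin scores and the lowest upper-layer scores. The array of highest Inhba was thus rich in myelin genes and poor in upper-layer genes. No stress replicate 6, alike on these scores, had an Inhba signal of 7.65. The scores of IMO replicate 1 and No stress replicate 6 were 0.627 and 0.761 for striatum, septum and thalamus. They were 0.0743 and 0.482 for choroid plexus and ependyma, and -0.0471 and 0.205 for deep-layer neurons. The part of content in the Inhba signal of these arrays was not tested.

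Single markers showed the same arrays. Mag, a myelin adhesion protein, was at 10.71 in IMO replicate 1 and 8.55 to 9.23 in the other IMO arrays, against 10.59 in No stress replicate 6 and 9.23 to 9.39 in the other No stress arrays. Mog, a myelin surface protein, was at 8.79 and 9.20 in that pair, IMO first, and at 7.02 to 7.78 elsewhere. The upper-layer marker Otof was at 6.54 and 7.20 and the upper-layer transcription factor Cux2 at 7.85 and 8.04, with 8.37 to 8.85 and 9.15 to 9.80 elsewhere.

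**Figure D2:**
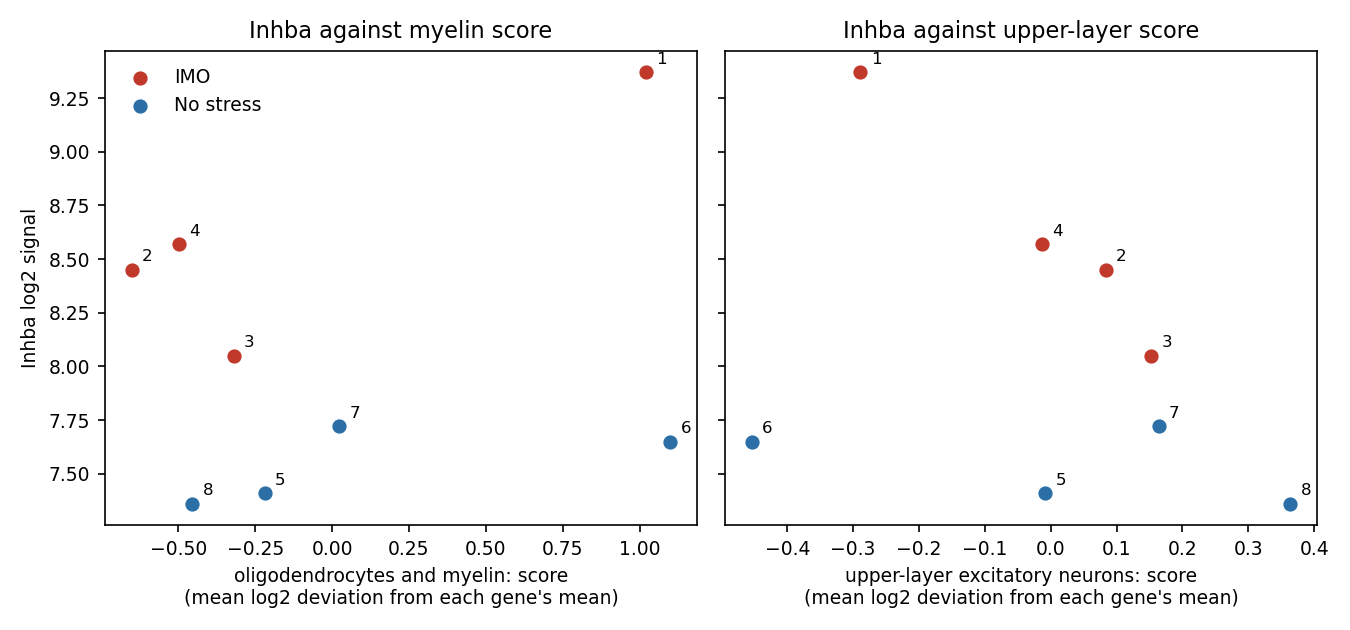
Inhba log2 signal (vertical axis) against the myelin score (left) and the upper-layer score (right), both in log2 units, for 4 IMO and 4 No stress arrays numbered by replicate. IMO replicate 1 and No stress replicate 6 share high myelin and low upper-layer scores, and their Inhba signals are 9.37 and 7.65.

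The Inhba contrast, on which the set was chosen, is given here by content as a description that supports nothing further. Within the pair, 1 array against 1, Inhba was 1.72 higher in the IMO array. Among the other 6 arrays the difference was 0.86 with a standard error of 0.154, and the groups again did not overlap, with IMO above in 9.38% of all probes in this smaller comparison. With the myelin score in the fit the difference was 1.17 (standard error 0.168), and with the upper-layer score it was 1.05 (standard error 0.196). Because these 2 arrays form a cluster, correlations were computed over the other 6. Whether content tracks Inhba was part of how the genes were chosen, so these are given with no test. Inhba and the myelin score gave a Pearson r of -0.545 and a Spearman rho of -0.543. Inhba and the upper-layer score gave r = -0.505 and rho = -0.657. The 6 arrays share the group difference.

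Leaving out the 2 arrays farthest from the median gave r = -0.487 for the myelin score and r = 0.384 for the upper-layer score, over 4 arrays each. With group means removed r was 0.0922 for the myelin score and -0.399 for the upper-layer score over the 6 arrays, each group holding 3. Several marker lists leaned towards lower mean signal in IMO, beside 10219 of all 20531 probes tested, and 0 markers passed the adjusted p. Lower were 11 of 12 myelin genes (median difference -0.25), 10 of 12 genes of striatum, septum and thalamus (-0.06), 7 of 9 endothelial genes (-0.09), 8 of 11 mural and meningeal genes (-0.09), 7 of 11 astrocyte genes (-0.08) and 7 of 10 deep-layer genes (-0.06). All 4 choroid plexus and ependymal markers (-0.52) and all 6 blood cell markers (-0.58) were lower too. At an unadjusted limma p under 0.05, 1 choroid plexus and ependymal marker and 2 blood cell markers were lower. So were 2 endothelial, 2 mural and meningeal and 2 astrocyte genes, and 0 genes of the other lists named. Outside these lists, 2 microglial genes and 1 interneuron gene were lower at that p. Higher were 1 microglial, 1 upper-layer and 1 oligodendrocyte precursor gene. Among all probes tested 5.19% were higher and 5.44% lower at that p. The choroid plexus and ependymal score, from 4 of 7 markers, ranged from -0.822 to 0.0743 in IMO and from -0.243 to 0.566 in No stress. The blood score, from 6 of 8 markers, ranged from -0.754 to 0.129 in IMO and from -0.104 to 0.786 in No stress. Their part in the Inhba difference was not tested.

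The second table gave the opposite direction for Inhba. That table was used without normalization, and differences in scale between its columns were not examined. Under its column names Inhba was at 8.31, 8.34, 8.42 and 8.08 in IMO, against 8.52, 9.02, 8.71 and 8.36 in No stress. Only IMO replicate 3 lay above a No stress column, namely replicate 8. IMO minus No stress came to -0.37 (standard error 0.148), a fold of 0.775, with a two-sided exact permutation p of 0.0571 (4 against 4 can reach 0.0286). By limma over all probes of that table the adjusted p was 0.981, and 567 of 20531 probes (2.76%) had an unadjusted p under 0.05. No column of the value table correlated best with the column of the same name in the second table (0 of 8). The detection p-values followed the column of the same name best in 8 of 8 arrays for the value table and in 1 of 8 for the second table. Which table holds the labelled arrays is still not settled, and the direction of the Inhba difference depends on that.

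The receptors had small differences in the second table too. Acvr1 stood at -0.15 (exact permutation p = 0.114), Acvr2b at -0.12 (exact permutation p = 0.371), Acvr1b at 0.02 (exact permutation p = 0.943) and Acvr2a at 0.14 (exact permutation p = 0.371). These are 5 such tests with that of Inhba, and limma's adjusted p over all probes of the table was 0.981 to 0.995 for the receptors. The sign of Acvr1 and Acvr2b was the same in both tables, and that of Acvr1b and Acvr2a was not. Zic1 in the second table was highest in No stress replicates 5 and 6, at 11.70 and 10.99, against 8.56 to 10.13 in the other columns. Prkcd, abundant in thalamus, was there at 9.81 in No stress replicate 5, 9.42 in IMO replicate 3 and 8.58 in No stress replicate 6, with 7.29 to 7.72 in the other columns. The part of such content in the Inhba difference there was not tested.

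**Figure D3:**
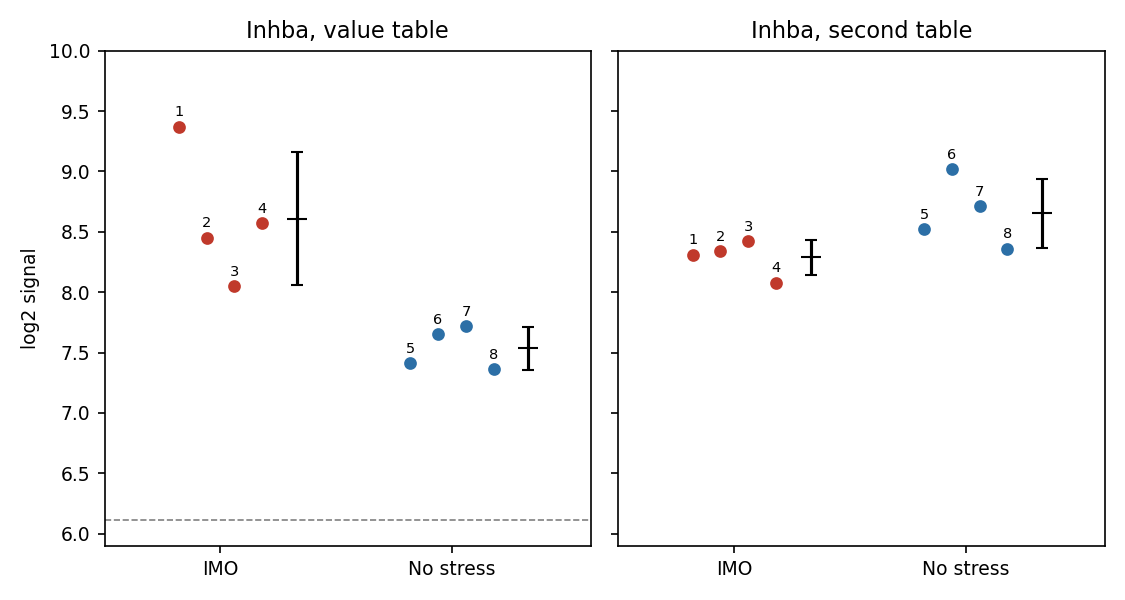
Inhba log2 signal in IMO and No stress under the same sample names in the value table (left) and the second table (right). Points are columns numbered by replicate and the bar is the mean with 1 SD (n = 4). The dashed line, drawn for the value table only, marks a detection p of 0.05. The IMO mean is 1.08 above the No stress mean on the left and 0.37 below it on the right.

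The other genes of the pathway were split in direction. Over all 7 lists of ligands, antagonists, receptors, Smads, targets and activity-regulated genes, 66 of 104 genes were tested, of which 4 had higher and 4 lower signal in IMO at an unadjusted limma p under 0.05. That is beside 5.19% higher and 5.44% lower among all probes tested. The median difference was -0.00, and 0 genes passed the adjusted p.

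The related ligands and inhibin subunits had small differences. Of 20 listed, 10 were tested and 0 reached an unadjusted p under 0.05, with a median difference of -0.01. Inha, the alpha subunit that turns a beta subunit into inhibin, had a difference of -0.06 (unadjusted p 0.699). Bmp3, a bone morphogenetic protein family member, stood at 0.24 (adjusted p 0.666) and Tgfb2, a transforming growth factor, at -0.19 (adjusted p 0.735). Without No stress replicate 6 Bmp3 stood at 0.05, and without IMO replicate 4 Tgfb2 stood at -0.07. In the second table they kept their signs, at 0.21 for Bmp3 and -0.18 for Tgfb2. Inhbc and Inhbe, the other beta subunits, and Mstn (myostatin) did not pass the detection filter.

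Among 15 antagonists and co-receptors 9 were tested and 0 reached an unadjusted p under 0.05. Fstl4, a follistatin-like protein, had a mean of 9.39 ± 0.17 in IMO and 8.92 ± 0.56 in No stress (SD, n = 4 each). Its difference of 0.47 (adjusted p 0.509) was 0.22 without No stress replicate 6 and 0.19 without the pair of arrays rich in myelin. Nog, which encodes the antagonist noggin, stood at 0.16 (adjusted p 0.633), and at 0.09 without No stress replicate 6 and 0.10 without IMO replicate 4. In the second table the signs turned, with Fstl4 at -0.10 and Nog at -0.24. Fstl3, another follistatin-like antagonist of activin, did not pass the detection filter.

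Receptors outside the member set had mean differences on either side of 0, with 3 higher and 3 lower in IMO. Of 7 listed, 6 were tested and 2 had higher signal in IMO at an unadjusted limma p under 0.05, with 0 lower. Among all probes tested 5.19% were higher and 5.44% lower at that p. Bmpr2, a type II receptor for bone morphogenetic proteins, ranged from 12.17 to 12.41 in IMO and from 11.92 to 12.08 in No stress. The groups did not overlap, with IMO above, as in 3.36% of all probes tested. IMO minus No stress came to 0.32 (standard error 0.0895, adjusted p 0.333). Acvr1c, the type I receptor also called ALK7 that binds activin B and Nodal, ranged from 8.76 to 8.96 in IMO and from 8.11 to 8.76 in No stress, or 0.41 apart on average (adjusted p 0.416). In the second table Bmpr2 stood at -0.14 and Acvr1c at 0.06.

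Of 19 Smads and regulators 9 were tested. Smad1, which relays bone morphogenetic protein signals, ranged from 9.13 to 9.45 in IMO and from 9.66 to 9.83 in No stress at its brightest probe, or -0.42 on average (adjusted p 0.26). Its 3 other tested probes stood at 0.08, -0.01 and -0.13, so the Smad1 probes disagree, and in the second table the brightest probe stood at 0.04. Smad2 and Smad3, the mediators of activin itself, had differences of 0.18 and -0.20 with unadjusted p of 0.142 and 0.191. Zfyve9, which presents Smad2 to the receptor, stood at 0.22 (adjusted p 0.5), and at -0.15 in the second table. Smad7, an inhibitory Smad, did not pass the detection filter, and Smad4 was not named on the array.

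Genes known to respond to Smads did not reach the threshold. Of 11 listed, 9 were tested, 0 had an unadjusted p under 0.05, and the median difference was -0.02. Pmepa1, a feedback inhibitor of the pathway, stood at 0.23 (adjusted p 0.597) and Id2, a repressor of helix-loop-helix factors, at -0.16 (adjusted p 0.56). Without No stress replicate 6 Pmepa1 stood at 0.10, and without IMO replicate 4 Id2 stood at -0.10. The 2 other tested Id2 probes stood at 0.15 and -0.01, so the Id2 probes disagree, and the other Pmepa1 probe stood at 0.11. In the second table Pmepa1 stood at 0.08 and Id2 at -0.03.

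Activity-regulated genes split in direction. Inhba belongs to a set of neuronal survival genes induced by nuclear calcium, of which 4 of 9 others were tested and 0 reached an unadjusted p under 0.05. Among them Npas4, an activity-dependent transcription factor, stood at 0.14, with arrays from 8.42 to 9.33 in IMO and from 7.42 to 10.11 in No stress. Single arrays turned its sign, to -0.27 without No stress replicate 5, -0.16 without No stress replicate 6 and -0.03 without IMO replicate 3, and it was 0.62 without No stress replicate 7. Gadd45b, a stress-response gene, stood at -0.07, and between -0.16 and 0.00 with 1 array left out. Of 25 other activity-regulated genes 21 were tested, with 2 higher and 3 lower in IMO at an unadjusted limma p under 0.05. Among all probes tested the shares at that p were 5.19% higher and 5.44% lower. Nptx2, a synaptic pentraxin, had a difference of 1.05 (adjusted p 0.236) and Bdnf, the neurotrophin, of 0.45 (adjusted p 0.333). Egr4 stood at -0.66, Per1 at -0.49 and Jun at -0.28, all 3 of them transcriptional regulators induced early after stimulation, with adjusted p of 0.333, 0.333 and 0.353. The other tested Per1 probe stood at -0.62, and the 2 other tested Bdnf probes at 0.39 and 0.22. In the second table the brightest probes stood at -0.17 for Nptx2, -0.04 for Bdnf, 0.13 for Egr4, 0.01 for Per1 and -0.05 for Jun. The sign of Jun alone among the 5 was thus the same in both tables.

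**Figure D4:**
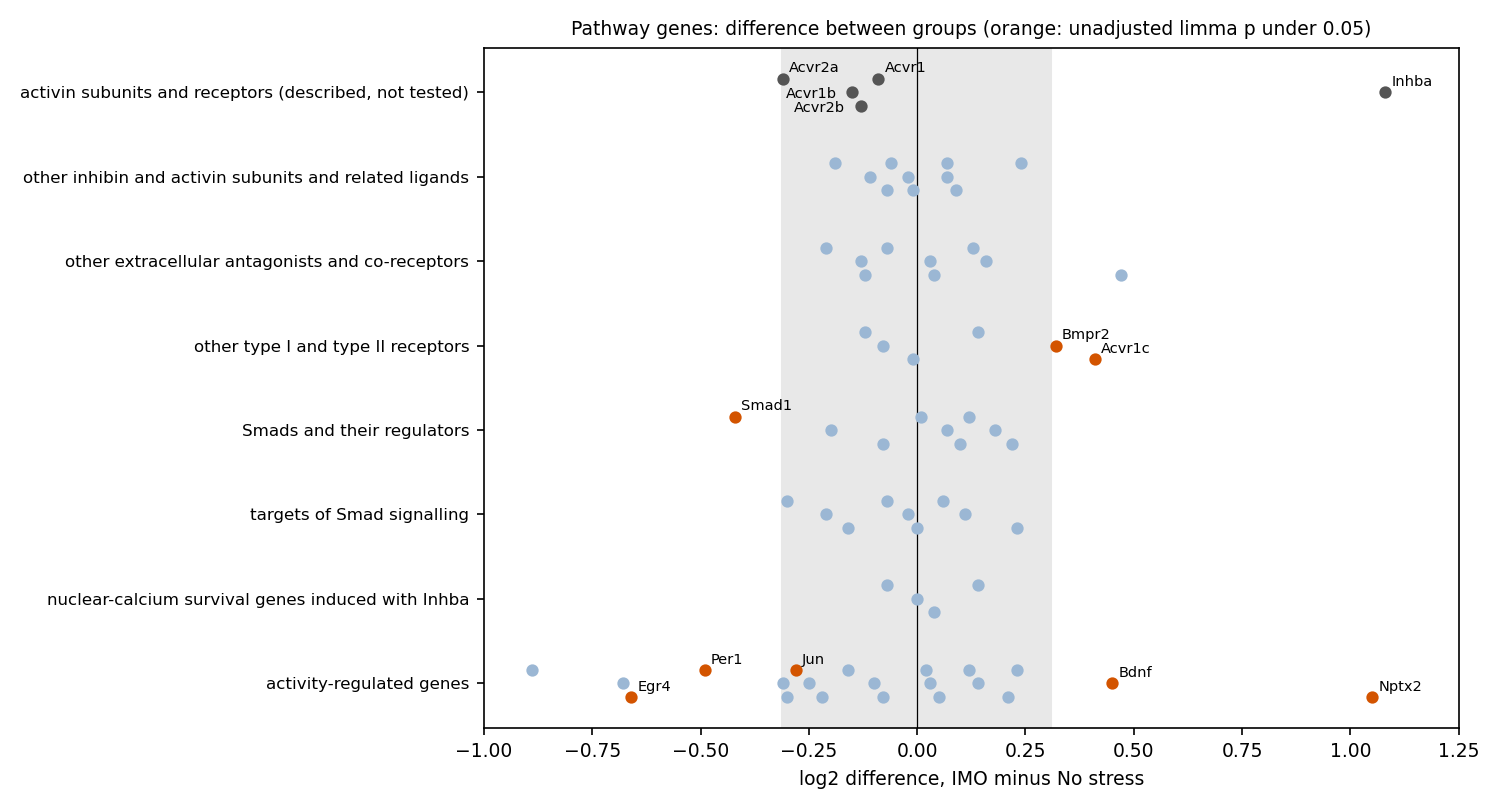
Log2 difference, IMO minus No stress, of the brightest tested probe of each gene, by list. Orange points have an unadjusted limma p under 0.05, dark points are the members, which are described without a test, and the grey band spans -0.312 to 0.31, the central 95% of all probes tested. Inhba at 1.08 and Nptx2 at 1.05 lie farthest to the right.

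The genes whose signal followed Inhba most closely over the arrays were looked up among 10710 other genes by Pearson r over the 8 log2 values, as a description. The 8 most alike were Gtf3c3, a subunit of an RNA polymerase III factor (r = 0.98), Dad1, a subunit of the oligosaccharyltransferase (0.976), Fam13c (0.966), the growth regulator Pa2g4 (0.947), Tmcc1 (0.946), the zinc finger gene Zfp536 (0.942), the phagocytic receptor kinase Mertk (0.936) and the angiotensin peptide receptor Mas1 (0.934). All 8 were highest in IMO replicate 1, as Inhba was. Over the 6 arrays without the myelin-rich pair their r with Inhba ranged from 0.85 to 0.956. The genes were picked as extremes of r over these same arrays, so neither value is a check on their likeness. The 4 most opposed were Dhps (r = -0.972), Golga2 (-0.97), Psmc4 (-0.963) and the kinase Csk (-0.957), all 4 lowest in IMO replicate 1. Their differences between IMO and No stress were smaller than that of Inhba, from 0.14 for Dad1 to 0.57 for Mas1 among the genes most alike.

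Likeness within the groups was examined as well. With group means removed, the 8 genes most alike were Dgkq, Meis1, Inpp5a, Adarb1, Luzp2, Adhfe1, Kcna5 and Rbpms, at r = 0.943 to 0.977, and the 4 most opposed were Trit1, Ap3s2, G6pc3 and Gtf2f1. Of those 8, 7 were highest in IMO replicate 1, and over the 6 arrays without the myelin-rich pair their plain r with Inhba ran from -0.644 to 0.686. Nptx2 had r = 0.84 with Inhba over the 8 arrays and 0.435 with group means removed, and Bdnf had 0.832 and 0.474. Among the receptors, Acvr2b had r = -0.339 over the 8 arrays and 0.762 with group means removed, and Acvr2a had -0.502 and -0.0463. Arrays share their group difference and their punch content, so these values do not separate the genes from either. The genes most alike and most opposed were picked as extremes on these same arrays, so their r values support no link to Inhba.

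**Figure D5:**
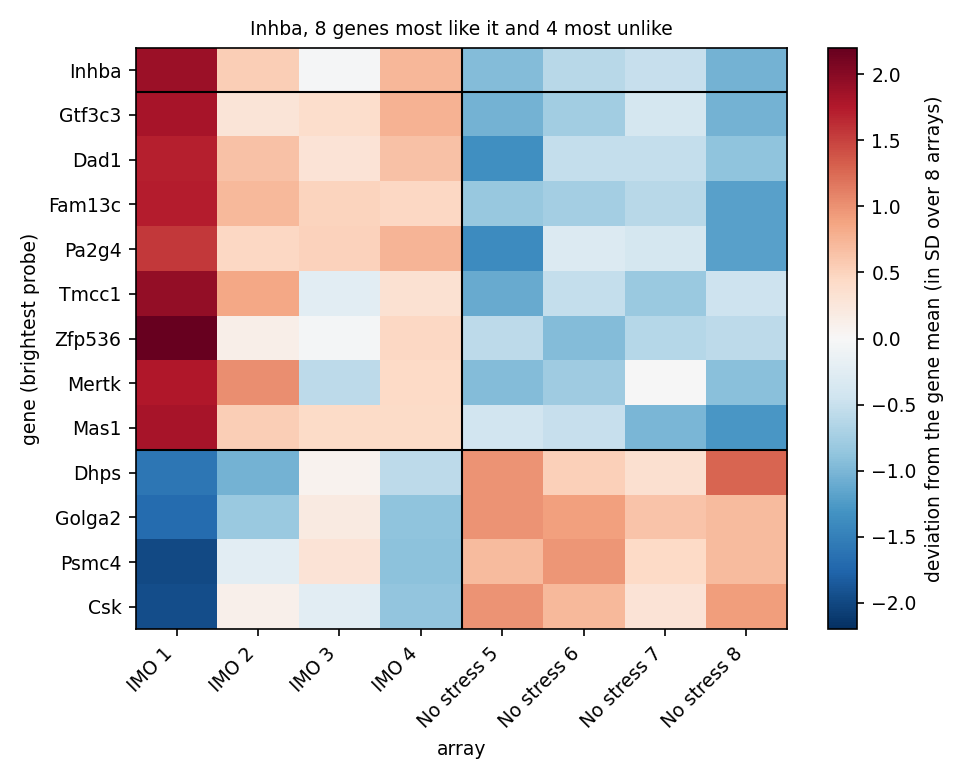
Signal of Inhba, the 8 genes most like it and the 4 most opposed over 8 arrays, as deviation from the gene's mean in SD units (colour), with IMO arrays left of the line and No stress arrays right of it. IMO replicate 1 holds the highest value of Inhba and of the 8 genes most like it, and the lowest of the 4 most opposed.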

How the data were processed

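RNA was purified on columns and amplified to biotin-labelled cRNA for Illumina arrays, per the labels' protocols. The authors deposited linear signal intensity for 45281 probes in 2 tables, with a detection p-value per probe and array beside the second; later steps are not given in the sources used here. Sorted columns of the value table are nearly equal, so it was not normalized again. The second table, labelled non-normalized, was also used without normalization, and whether its columns share a scale was not examined. The deposited detection p-values follow the columns of the value table (Spearman 0.978 to 0.987 for columns of the same name). Over all pairings with columns of the second table the Spearman values ran from 0.892 to 0.935. The same detection filter was used for both tables.

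Intensities were taken to log2 without a pseudocount. Probes with detection p under 0.05 on at least 4 arrays were fitted with limma 3.58.1 in R 4.3.3 (lmFit, eBayes), with Benjamini-Hochberg adjustment over 20531 probes, after a check on simulated data. The number of arrays limits the precision (median standard error 0.108). Each gene outside the members stands for its brightest tested probe. Named were all member probes, for each pathway list the 2 genes of smallest p and every gene with unadjusted p under 0.05, the genes most like Inhba, and for punch content the widest-ranging 2 markers a list. Further genes (Inha, Inhbc, Inhbe, Mstn, Fstl3, Smad2, Smad3, Smad4, Smad7, Zic1, Slc17a7) were named after their values were seen. Members and lists were chosen with earlier results of these data known. Promoter windows are from RefSeq (GRCm38.p6), with a window for 6 of the 7 genes. Alternatives covered normalization, background, filters, variance, content scores and left-out arrays. No column was left unmapped.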

Additional observations from a re-analysis of the deposited data

Results flagged for a closer look

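In 2 of 34 groups of 4 arrays examined, the gap of the outermost array to its nearest neighbour was above Dixon's critical share of the group's range, at 0.854 for the first and 0.849 for the second. Chance flags about 1 in 20 such groups. The Fst probe ILMN_1228958 was at 5.48 in IMO replicate 1, against 5.91 to 5.98 in the other IMO arrays. The dimmer Acvr2a probe ILMN_2563120 was at 5.82 in IMO replicate 4, against 5.52 to 5.57 in the other IMO arrays. Both probes were undetected on all 4 IMO arrays.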

How the results depend on the processing

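The Inhba difference of 1.08 stayed within 1 pooled SD (0.412) under 19 of 20 alternative settings. Among these it ran from 0.82 without IMO replicate 1 to 1.26 without IMO replicate 3. Further quantile normalization, median scaling, cyclic loess, the changes of filter and the variance setting left it at 1.08. The set was chosen on this contrast, so the count of settings lends the difference no support. The Inhba difference turned to -0.37 in the second table. In a comparison added after seeing the data, it was 1.72 within the pair of IMO replicate 1 and No stress replicate 6, where Acvr1 was 0.11. Acvr2a was 0.14 in the second table. Acvr1b turned to 0.01 without IMO replicate 4. Probes past the adjusted p numbered 1 without that pair and 0 under the other 19 alternatives. An unadjusted p under 0.05 was met by 3770 probes with no filter on dim probes, by 567 in the second table and by 1467 to 2407 with single arrays left out. Groups did not overlap in 2301 probes with no filter, 3760 without the pair, 482 in the second table and 1800 to 2621 with single arrays left out, where fewer arrays make this easier to meet. Pathway genes at an unadjusted p under 0.05 numbered 0 in the second table and 7 to 11 with single arrays left out. The correlation of Inhba with the myelin score was 0.0922 with group means removed, and that with the upper-layer score was 0.384 without its 2 farthest arrays. The second-table Inhba difference ran from -0.46 to -0.24 with single columns left out. Correlations of Inhba with the content scores over all 8 arrays were not run because 2 arrays form a cluster. No paired analysis was possible because replicate numbers run from 1 to 8 without repeats. Near background, at about 6.11, differences are compressed.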
